A study of Mus musculus with 6 samples.

Results

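The genes described here rose at both steps of an increasing peroxide exposure, from control cells to cells given 80 µM H2O2 and again to cells given 150 µM. They are the 111 genes, of 24454 in the table and 11428 with a mean of at least 1 CPM (reads per 1000000 reads assigned to genes), whose group mean of log2(CPM + 0.5) was at least 0.8 higher in I80 than in PBS and at least 0.8 higher again in DI150 than in I80. The difference between I80 and PBS also had to stay under 4. Here the difference from PBS to I80 is called the first step and that from I80 to DI150 the second, and the genes are called stepwise genes. The genes were thus chosen by the CPM of all 6 libraries in all 3 groups, so their steps are given as descriptions and no test on them supports anything.

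MTflEcad is a line of epithelial breast cancer cells that arose in the mammary gland of MMTV-Neu mice, where a mammary tumour virus promoter drives the Neu oncogene in that tissue. All 3 groups are this line, kept for 7 months with a daily addition of PBS (H2O2 at 0 µM; the group is PBS), of 80 µM H2O2 (I80) or of 150 µM H2O2 (DI150), and the protocols in the labels call the PBS cells untreated. RNA was sequenced in 2 libraries per group, described as biological duplicates, and whether each came from its own long-term culture is not stated, so all spreads are those between these libraries. If the libraries of a dose share a culture, the dose and that culture cannot be told apart. Total reads per library ran from 21017849 to 26608715, which makes 1 read worth 0.0376 to 0.0476 CPM. A DI150 column carries the number 3, which no label has, and is called DI150 replicate 3.

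The epithelial label was checked against defining markers. All 5 epithelial markers averaged 1 CPM or more across all 6 libraries, and their sum ran from 5933 to 5980 CPM in PBS, from 2744 to 2750 in I80 and from 2796 to 3098 in DI150. Krt19, one of the 5, had no read in I80 or DI150. The 7 fibroblast markers summed to 21.8 to 24 CPM across all libraries, with Pdgfrb at no read. The 6 immune markers summed to 7.93 to 14.8 CPM in PBS and to at most 0.381 CPM in the treated lines, with Cd3e and Adgre1 among those at no read. Endothelial, adipocyte and neuronal markers summed to at most 0.404 CPM in any library. In such bulk libraries, fewer cells of a type and less RNA per cell cannot be told apart. The part of these differences in the values below was not tested.

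Hydrogen peroxide is a small oxidant that crosses membranes and oxidises protein thiols, iron centres and lipids. Cells remove it with catalase, which splits it in peroxisomes, and with the peroxiredoxins and glutathione peroxidases, while further enzymes clear the aldehydes, quinones and conjugates that oxidation leaves behind. In mammary tumour cells that carry Neu, which is a receptor tyrosine kinase, signalling through MAP kinases runs beside this defence and is restrained by feedback inhibitors such as the Sprouty proteins.

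Most stepwise genes drew few reads in PBS and a moderate number in DI150. CPM are not divided by gene length, so they do not rank levels between genes. The mean of the stepwise genes over the 6 libraries had a median of 7.91 CPM, against 39.8 CPM over all tested genes. In PBS, 52 of the 111 were under 1 CPM in both libraries, 17 had 3 reads or fewer in each, and 6 (Bend6, Mlana, Ces1d, Slc27a6, Gpr162 and F930015N05Rik) had no read. In DI150, 21 were over 100 CPM in both libraries. The first step ranged from 0.82 to 3.83 with a median of 1.58 on the log2 scale, and the second from 0.80 to 5.99 with a median of 1.13. Over all tested genes, the median steps were 0.00 for both within rounding (-0.00205 and 0).

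All 111 ran in the order PBS, I80, DI150 with no overlap of libraries, as 13.4% of all tested genes did. limma, fitted across all tested genes, called all 111 higher in I80 than in PBS at a Benjamini-Hochberg adjusted p under 0.05, beside 32.3% of tested genes called higher. It called all 111 higher in DI150 than in I80, beside 21.9% of tested genes, and all 111 higher in DI150 than in PBS, beside 32.7%. Both steps were called higher for 5.57% of tested genes. Since the rule took these same values, nothing is read from the calls of the members. With 1 library left out, the members called at both steps numbered 89 without I80 replicate 1, 87 without I80 replicate 2, 89 without DI150 replicate 1 and 90 without DI150 replicate 3, and 110 and 111 without a PBS library. Over all tested genes, 2503 were called higher in DI150 than in I80, and 1296, 1307, 1544 and 1536 without those 4 libraries in the same order.

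The smaller step was larger than the largest difference between replicate libraries in 109 of the 111 genes, the exceptions being Krt23 and Trp53inp2. Since the rule holds both steps at 0.8 or more in these same libraries, nothing is read from this count. On the log2(CPM + 0.5) scale the first step was the larger one in 77 genes and the second in 34. The share of the log2 rise that lay between PBS and I80 had a median of 55.7%. This share ran from 19.4% in Apba1 to 81.7% in Lcp1. The added 0.5 shrinks the first step of genes near 0 in PBS, so folds can order the steps otherwise. Nxph4 had log2 steps of 3.31 and 3.93 but folds of 31.7 and 16.4. How many genes change order on the fold scale was not counted. On the log2 scale the replicate libraries of a stepwise gene were a median of 0.23 apart in PBS, 0.11 in I80 and 0.14 in DI150. In PBS, replicate 2 was the higher library for 79 of the 111 genes (71.2%), beside 56.9% of all tested genes. With 1 library left out, a step moved by over 1.5 times on the log2 scale in 8 genes. Without PBS replicate 1 the first step went from 1.14 to 0.75 in Sema3b, from 0.90 to 0.55 in Tnfrsf11a and from 0.84 to 0.46 in Gm10863, and without DI150 replicate 1 the second step of Cspg4 went from 0.89 to 0.56. The other 4, Cbr2, Krt23, Trp53inp2 and Anxa9, are given with their values below.

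**Figure D1:**
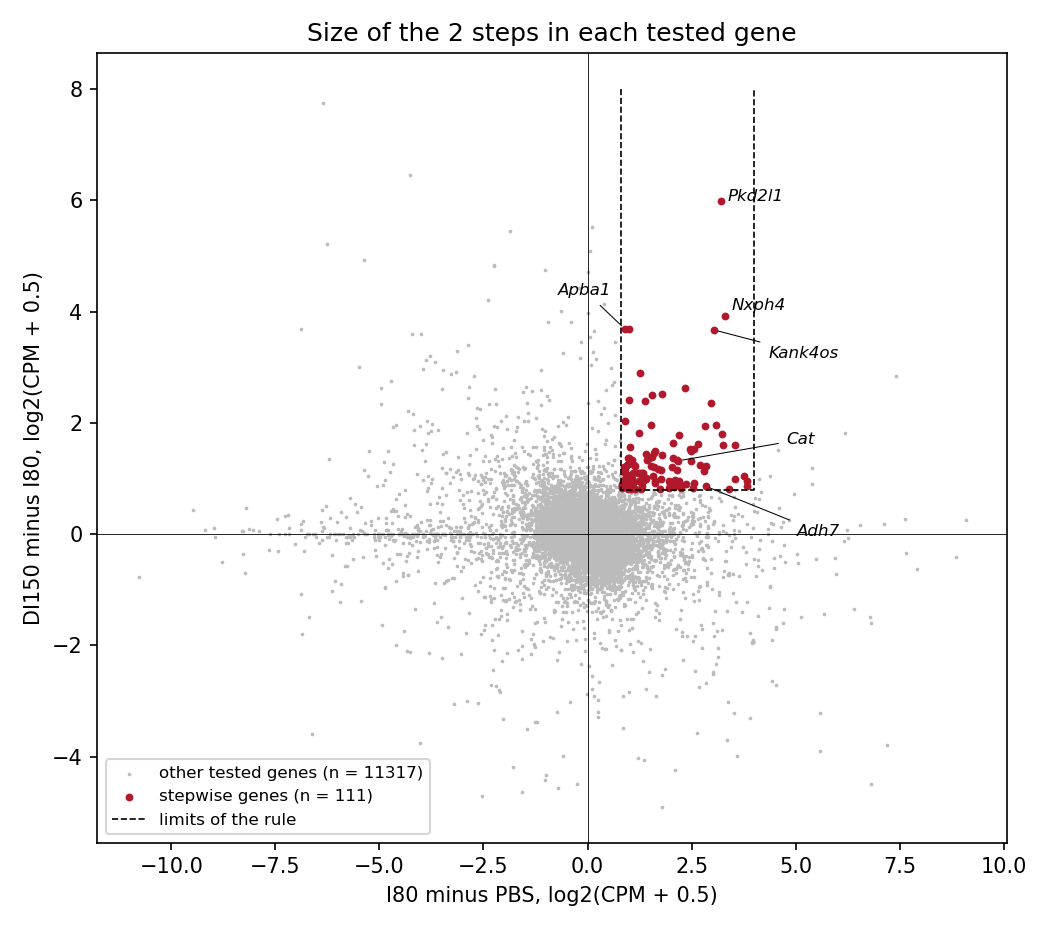
First step (I80 minus PBS, x axis) against second step (DI150 minus I80, y axis) of each tested gene, both as differences of group means of log2(CPM + 0.5). Red points are the 111 stepwise genes and grey points the other tested genes, and the dashed lines are the limits that chose them; Pkd2l1, with a second step of 5.99, stands above all other red points.

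At the limit of 0.8, among genes that averaged 5 CPM or more, those just inside were Rbpms, Hs3st3b1 and Gabpb2, each with a smaller step of 0.81. Just outside were Tspan33 with a second step of 0.7997, Rhoj with a first step of 0.798 and Slc12a2 with a first step of 0.794. Another 7 genes met both lower limits and were left out by the upper limit on the first step. They were Hlf, Csn3, Col9a1, St8sia1, Gstm2, Gstm7 and 3830417A13Rik. Hlf, which encodes a transcription factor of the PAR bZIP family, stood at 1.24 and 0.607 CPM in PBS, 105.0 and 96.1 CPM in I80 and 350.5 and 356.6 CPM in DI150. The milk protein gene Csn3 stood at 4.85 and 13.5, then 361 and 360.2, then 687 and 985.9 CPM in the same order. Gstm2 and Gstm7 are 2 of several similar glutathione S-transferase genes whose reads can be split between copies. They had first steps of 4.39 ± 0.38 and 4.12 ± 0.27 and second steps of 1.04 ± 0.38 and 0.99 ± 0.27 (SE). The second step of Gstm2 was not called (limma adjusted p 0.060), and its PBS libraries were at 0.714 and 2.75 CPM.

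Enzymes that act on peroxide, alcohols, aldehydes and conjugates made up 8 stepwise genes, a group that like all those named here was made by role after the values had been seen and is not tested. Cat encodes catalase and is gene 12359, on chromosome 2 of GRCm38 at 103453904 to 103485153. It was at 89.1 and 104 CPM in PBS, at 456 and 424 in I80 and at 1136 and 1059.5 in DI150. The 2 libraries of each group lay close together and no groups overlapped. Means were 96.7 ± 10.7 CPM in PBS, 440.0 ± 22.1 CPM in I80 and 1098 ± 54.0 CPM in DI150 (SD, n = 2 each), a 4.55-fold and then a 2.50-fold rise, or 2.18 ± 0.09 and 1.32 ± 0.09 (SE) on the log2 scale. Adh7, an alcohol dehydrogenase that also oxidises retinol, is gene 11529 on chromosome 3 at 138198064 to 138232042 and drew the most reads of all stepwise genes in DI150. It stood at 106 and 99.0 CPM in PBS, then 705 and 769 in I80, and finally 1299.6 and 1374 in DI150. The rise was 7.19-fold and then 1.81-fold, so most of it on the log2 scale lay in the first step (2.84 ± 0.08 against 0.86 ± 0.08, SE).

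Abcg2, a membrane pump that exports drugs and urate and has a place in mammary secretion, behaved in the same order and is gene 26357 on chromosome 6 at 58584491 to 58692451. Its libraries read 50.3 and 51.2 CPM in PBS, 189 and 166 in I80 and then 482 and 466 in DI150. The groups did not overlap, and the folds were 3.49 and 2.68. Plaur encodes the urokinase receptor, which holds a plasminogen-activating protease at the cell surface. Plaur was at 71.0 and 58.3 CPM in PBS, at 138 and 131 in I80 and at 359.7 and 324 in DI150. Here the second step was the larger (1.06 ± 0.10 and then 1.34 ± 0.10, SE), and again no library of one group reached the next group.

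Promoters of these 4 genes are printed because they draw many reads and differ in role, and because they show which of 4 short motifs the windows do and do not hold. Each window runs from 250 bases before to 50 after a RefSeq start on GRCm38.p6, which for Adh7 and Abcg2 lies inside the span given above. It is written 5′ to 3′ on the strand of the gene, and has the motif matches in capitals. The motifs searched, on both strands, were the antioxidant response element core TGACNNNGC, the AP-1 site TGANTCA, the cyclic AMP response element TGACGTCA and the TATA box TATAAA. In Adh7 the capitals mark a TATA box on the opposite strand, 202 bases before the start, and an AP-1 site that begins 25 bases before the start. In Plaur they mark an AP-1 site at 69 bases before the start, and in Abcg2 a cyclic AMP response element at 37 bases before the start of the last of its 3 RefSeq starts. The windows of the first and second Abcg2 starts, which are not printed, each hold a TATA box on the given strand, 41 bases and 1 base after the start. Cat holds none of the 4 motifs in its window.
Adh7 chr3:138217523-138217822 (+): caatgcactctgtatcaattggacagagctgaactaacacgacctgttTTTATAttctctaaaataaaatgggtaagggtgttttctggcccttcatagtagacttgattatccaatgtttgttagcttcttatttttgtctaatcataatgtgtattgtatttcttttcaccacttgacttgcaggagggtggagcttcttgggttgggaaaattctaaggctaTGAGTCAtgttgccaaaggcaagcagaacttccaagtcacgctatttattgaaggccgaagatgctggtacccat
Plaur chr7:24462233-24462532 (+): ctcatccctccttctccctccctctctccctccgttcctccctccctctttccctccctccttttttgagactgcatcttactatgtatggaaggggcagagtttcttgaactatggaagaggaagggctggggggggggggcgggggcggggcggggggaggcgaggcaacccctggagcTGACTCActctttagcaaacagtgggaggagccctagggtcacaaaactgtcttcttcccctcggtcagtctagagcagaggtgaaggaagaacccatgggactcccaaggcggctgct
Abcg2 chr6:58640296-58640595 (+): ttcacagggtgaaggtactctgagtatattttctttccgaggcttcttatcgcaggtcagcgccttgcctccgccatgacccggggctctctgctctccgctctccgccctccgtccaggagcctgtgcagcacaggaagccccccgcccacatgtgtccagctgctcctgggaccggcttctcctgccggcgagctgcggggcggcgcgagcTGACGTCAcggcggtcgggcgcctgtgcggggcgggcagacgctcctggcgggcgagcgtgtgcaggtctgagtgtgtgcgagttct
Cat chr2:103485104-103485403 (-): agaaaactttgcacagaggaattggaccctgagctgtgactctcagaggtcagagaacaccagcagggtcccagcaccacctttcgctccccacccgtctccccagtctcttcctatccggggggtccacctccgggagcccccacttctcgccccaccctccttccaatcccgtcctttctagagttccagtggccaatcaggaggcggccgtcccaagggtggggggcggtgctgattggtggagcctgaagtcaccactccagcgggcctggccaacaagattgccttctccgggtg

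RefSeq windows were matched for 87 of the 111 stepwise genes and for 9137 tested genes. The antioxidant core, the letters that NRF2 with its small MAF partner is known to bind, was in 10 of the 87 (11.5%), beside 17.1% of all tested windows. The AP-1 site was in 6 (6.90%, beside 6.10%), namely Adh7, Mmp1b, Plaur, Sipa1l2, Slc2a9 and Tspan15. The cyclic AMP response element was in 4 (4.60%, beside 3.81%), which were Abcg2, Bend6, Hs3st3a1 and Trp53inp2, and the TATA box in 9 (10.3%, beside 8.04%). The median window of the stepwise genes held 59.3% GC and 16 CpG, against 61.3% and 21 over all tested genes. A match is one of letters only, and a window of 300 bases without a match lacks these letters and says nothing about the factor.

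The other 6 enzymes of the group drew fewer reads. Cbr2 is a carbonyl reductase. It stood at 18.6 and 36.1 CPM in PBS, then 55.2 and 57.5 in I80, and finally 122 and 119 in DI150. Its PBS libraries were further apart than those of most stepwise genes, and its steps were nearly equal, at 1.10 ± 0.25 and 1.09 ± 0.25 (SE). Without PBS replicate 1 the first step of Cbr2 was 0.63, and the steps were then no longer alike. Papss2, which makes the sulfate donor of sulfation reactions, stood at 0 and 0.0404 CPM in PBS, 3.94 and 3.22 in I80 and then 20.3 in both DI150 libraries. Papss2 had 1 read in all of PBS, so its ratios of pooled reads were 184 (exact 95% interval 32.6 to 7315) for I80 and 1041 (exact 95% interval 186 to 41179) for DI150 against PBS. Aldh1a7, an aldehyde dehydrogenase, was at 0.338 and 0.243 CPM in PBS, at 2.58 and 1.94 in I80 and at 14.8 and 15.6 in DI150. The aldo-keto reductase gene Akr1c13 stood at 1.01 and 1.66 CPM in PBS, then 9.44 and 9.89 in I80, and finally 25.3 and 24 in DI150. Both have close relatives in the mouse genome, as have the carboxylesterase gene Ces1d and the acetyltransferase-like Nat8f2, so the 4 counts are uncertain. Ces1d stood at 0 CPM in both PBS libraries, 1.64 and 1.81 in I80 and then 3.90 and 6.68 in DI150, at least 45.2-fold higher in DI150 than a PBS floor of 3 reads per library. Nat8f2 rose from a mean of 0.494 CPM in PBS to 1.86 in I80 and 3.64 in DI150.

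The transporter group held 4 genes, Abcg2 among them. Slc2a9, a urate and hexose transporter, was at 6.92 and 12.1 CPM in PBS, at 67.7 and 64.8 in I80 and at 161 and 132 in DI150. The PBS libraries were far apart for this gene, yet both lay far below I80. Slc27a6, a fatty acid transport protein, stood at 0 CPM in both PBS libraries, then 0.975 and 0.907 in I80, and finally 5.38 and 4.81 in DI150.

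**Figure D2:**
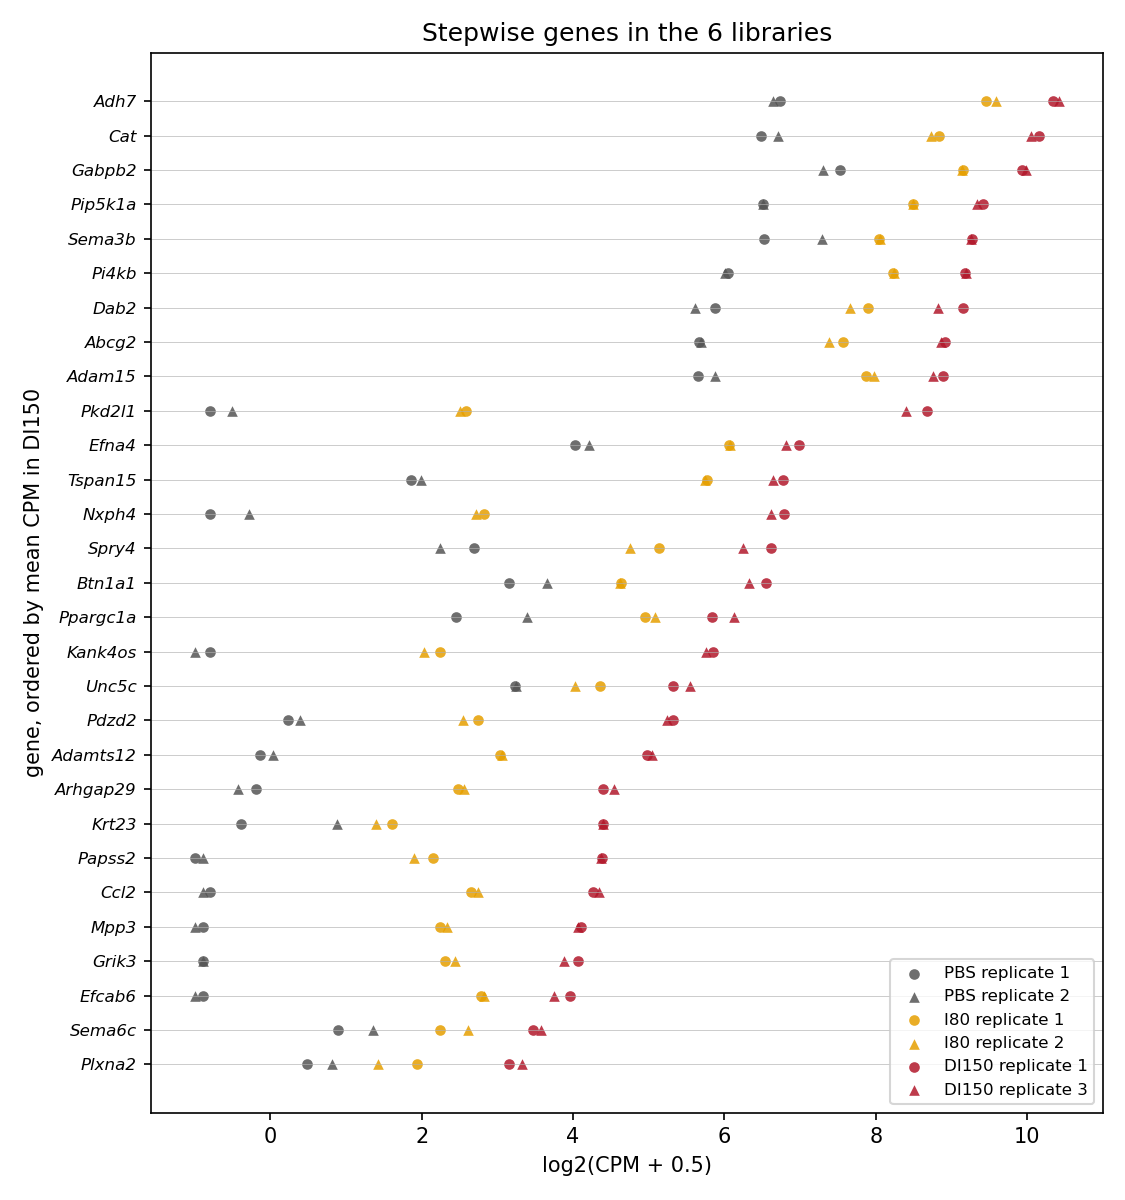
Values of the 29 stepwise genes named for their rise, number of reads, second step or place in a gene list, as log2(CPM + 0.5) on the x axis, with 1 row per gene ordered by mean CPM in DI150. Grey, orange and red are PBS, I80 and DI150, and circles and triangles are the replicates of a group; in every row the 3 colours run from left to right without overlap.

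Channels, receptors and synaptic proteins, best known from nerve and sensory cells, made up 12 of the stepwise genes and held the one with the largest rise. Pkd2l1, a cation channel of the polycystin family known from sour-sensing and spinal fluid-contacting cells, is gene 329064 on chromosome 19 at 44147637 to 44248328. It stood at 0.0752 and 0.202 CPM in PBS, 5.50 and 5.19 in I80 and then 407 and 336 in DI150. With 2 and 5 reads in the PBS libraries and 8563 and 8798 in those of DI150, it had the largest rise of the 111, 38.6-fold and then 69.5-fold. The first of these rests on 7 PBS reads, and without PBS replicate 2 it was 71.1-fold. The row of Scd3 overlaps it and moved otherwise, with steps of 1.17 and -1.44. Nxph4 encodes a secreted ligand of neurexins. It was at 0.0752 and 0.323 CPM in PBS, at 6.59 and 6.06 in I80 and at 109.8 and 97.2 in DI150. Both of its steps were large, at 3.31 ± 0.19 and 3.93 ± 0.19 (SE), and its smaller step was the largest of any stepwise gene.

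Grik3, a kainate-type glutamate receptor subunit, stood at 0.0376 and 0.0404 CPM in PBS, then 4.45 and 4.91 in I80, and finally 16.3 and 14.2 in DI150. It had 1 read in each PBS library, and the ratio of pooled reads was 119.9 (exact 95% interval 32.8 to 996) for I80 and 389 (exact 95% interval 107 to 3219.9) for DI150 against PBS. Apba1, an adaptor of synaptic vesicle release, stood at 0.0376 and 0 CPM in PBS, 0.429 and 0.495 in I80 and then 13.3 and 10.7 in DI150. Its steps on the log2(CPM + 0.5) scale were 0.89 ± 0.19 and then 3.69 ± 0.19 (SE). With 1 read in all of PBS, its ratio of pooled reads was 23.7 (exact 95% interval 3.84 to 975) for I80 against PBS. The ratio of mean CPM was 25.9 for DI150 against I80, so the unequal log2 steps depend on the added 0.5. Aplp1, a relative of the amyloid precursor protein, was at 38.7 and 53.9 CPM in PBS, at 182 and 179 in I80 and at 369.6 and 331 in DI150. The presynaptic scaffold gene Ppfia3 rose from a mean of 9.24 CPM in PBS to 25.3 in I80 and 51.4 in DI150. The others were the glycine receptor subunit Glrb, the AMPA receptor auxiliary subunit Cnih2, the SRC inhibitor Srcin1, the muscarinic receptor Chrm3, dynamin-1 (Dnm1) and the orphan receptor Gpr162, whose DI150 means lay between 3.32 and 9.33 CPM. The neuronal markers Rbfox3 and Snap25 had no read, and the 4 neuronal markers summed to at most 0.404 CPM in any library.

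A further 5 stepwise genes belong to the semaphorin, ephrin and netrin systems that guide axons and position epithelial cells. Sema3b, a secreted semaphorin, stood at 91.4 and 157 CPM in PBS, then 263 and 266 in I80, and finally 619 and 614 in DI150. The PBS libraries were 0.77 apart on the log2 scale, and both lay below I80. Efna4, a membrane-anchored ephrin ligand, stood at 15.7 and 18.1 CPM in PBS, 66.5 and 66.7 in I80 and then 126 and 112 in DI150. Unc5c, a netrin receptor, was at 8.87 and 8.98 CPM in PBS, at 20 and 15.8 in I80 and at 39.4 and 46.1 in DI150. Sema6c, a transmembrane semaphorin, rose from a mean of 1.71 CPM in PBS to 4.93 in I80 and 11.0 in DI150, and the plexin receptor Plxna2 from 1.08 CPM in PBS to 2.75 in I80 and 8.98 in DI150. Of the 42 tested genes of the axon guidance list, 13 were called higher and 22 lower at the first step, and 15 higher and 14 lower at the second. Over all tested genes, 32.3% were called higher and 34.2% lower at the first step, and 21.9% each way at the second, against 31.0% and 52.4% and then 35.7% and 33.3% of the list. The list median was -0.58 for the first step and 0.03 for the second, and the 5 stepwise genes were the ones called higher at both steps (11.9%, beside 5.57% of tested genes).

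Regulators of signalling made up 10 of the 111. Spry4, a Sprouty feedback inhibitor of receptor tyrosine kinase signalling, stood at 5.94 and 4.25 CPM in PBS, then 34.6 and 26.5 in I80, and finally 97.7 and 75.6 in DI150. Its folds were 6.0 and 2.84, and in each group replicate 1 was the higher library. Dab2, an endocytic adaptor that also binds signalling proteins, stood at 58.3 and 48.4 CPM in PBS, 238 and 202 in I80 and then 568 and 451 in DI150. Dusp3, a dual-specificity phosphatase that acts on MAP kinases, was at 55.2 and 64.1 CPM in PBS, at 116 and 113 in I80 and at 249.6 and 229.8 in DI150. No library of these genes reached the range of the next group. Tnik, a kinase that acts with TCF4 in Wnt signalling, stood at 3.27 and 4.77 CPM in PBS, then 26.4 and 21.9 in I80, and finally 70.9 and 69.1 in DI150. Arhgap29, a GTPase-activating protein for RhoA, stood at 0.376 and 0.243 CPM in PBS, 5.07 and 5.40 in I80 and then 20.5 and 22.8 in DI150. Shisa2, which retains receptors of the FGF and Wnt pathways in the cell, rose 3.14-fold and 2.32-fold, and Sipa1l2, a Rap GTPase-activating protein, 6.54-fold and 1.90-fold. Prickle1, Dact3 and Kalrn stayed under 5 CPM in each library.

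The phosphoinositide kinases Pi4kb and Pip5k1a act in sequence to make the membrane lipid that phospholipase C and PI3-kinase use. Pip5k1a was at 90.2 and 90.3 CPM in PBS, at 361 and 360.3 in I80 and at 680.1 and 647 in DI150. Pi4kb stood at 65.8 and 63.9 CPM in PBS, then 299 and 302 in I80, and finally 577 and 586 in DI150. Replicates differed by at most 0.07 and 0.04 on the log2 scale, and the rises from PBS to DI150 were 7.35-fold and 8.96-fold. Inpp5j, a phosphatase of the same lipids, rose from a mean of 0.432 CPM in PBS to 4.29 in I80 and 8.47 in DI150.

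Transcription and RNA regulators made up 10 genes. Gabpb2, a subunit of the GA-binding protein, stood at 184 and 157 CPM in PBS, 567 and 565 in I80 and then 981 and 1009 in DI150. Nr4a1, an immediate early orphan nuclear receptor, was at 29.0 and 37.6 CPM in PBS, at 76.7 and 67.2 in I80 and at 192 and 152 in DI150. Rbpms, an RNA-binding protein, stood at 3.91 and 5.66 CPM in PBS, then 53.1 and 56.4 in I80, and finally 91.3 and 101 in DI150. Rbpms rose 11.4-fold at the first step and 1.76-fold at the second, close to the lower limit of the rule. Tcf7l1, a TCF factor that mostly represses Wnt targets, stood at 9.25 and 10.6 CPM in PBS, 22.2 and 20.3 in I80 and then 42.2 and 43.7 in DI150. Its steps were close to equal (1.07 ± 0.11 and 1.0 ± 0.11, SE). Bend6, a BEN domain protein of Notch signalling, was at 0 CPM in both PBS libraries, at 0.585 and 0.412 in I80 and at 11.0 and 13.9 in DI150. Bend6 lies within Dst, which had steps of 1.67 and 0.45 on the log2 scale. Whether counting used the strand is not stated in the sources used here, so reads of the pair cannot be told apart where they overlap. Gli1, the transcriptional output of Hedgehog signalling, Cpeb3, Tbx2, Cecr2 and Tent5a had DI150 means between 2.87 and 11.0 CPM.

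Genes of innate immunity numbered 9. Pglyrp1, a secreted protein that binds bacterial peptidoglycan, stood at 24.1 and 34.4 CPM in PBS, then 120.1 and 120.3 in I80, and finally 318 and 306 in DI150. Ccl2, the chemokine that attracts monocytes, stood at 0.0752 and 0.0404 CPM in PBS, 5.77 and 6.18 in I80 and then 18.7 and 19.8 in DI150. Ccl2 had 3 reads in all of PBS, and the ratio of pooled reads was 102 (exact 95% interval 34.6 to 498) for I80 and 329.8 (exact 95% interval 112 to 1602) for DI150 against PBS. Ticam1, the TRIF adaptor of Toll-like receptors, was at 7.10 and 9.38 CPM in PBS, at 15.5 and 16.5 in I80 and at 32.9 and 30.9 in DI150. C1rl, a serine protease related to complement C1r, stood at 0.0376 and 0.202 CPM in PBS, then 0.936 and 1.73 in I80, and finally 8.75 and 10.6 in DI150. Its neighbour C1ra, which has a near-identical copy, and Tnfrsf11a, the RANK receptor of mammary development, reached DI150 means of 6.36 and 15.7 CPM. Tnfaip8l2, Gzmm and Tifa stayed under 5 CPM. The immune marker sum went the other way, as given above.

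Extracellular proteolysis held Plaur, described above, and 5 other genes. Adam15, a membrane-bound metalloprotease with a disintegrin domain, stood at 49.6 and 58.1 CPM in PBS, 233 and 251 in I80 and then 475 and 432 in DI150. Adamts12, a secreted matrix protease, was at 0.413 and 0.526 CPM in PBS, at 7.69 and 7.87 in I80 and at 31.0 and 32.4 in DI150. Adamts12 rose 16.6-fold and then 4.08-fold, and its replicates lay close together in each group. Hpn, the membrane serine protease hepsin, rose from a mean of 0.139 CPM in PBS to 2.42 in I80 and 9.59 in DI150. Mmp1b, which has a near-identical neighbour, and Prss53 had DI150 means of 2.25 and 2.22 CPM.

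Among 8 genes of heparan sulfate, matrix and the cell surface were 2 that encode sulfotransferases of the same heparan sulfate modification. Hs3st3b1 stood at 57.4 and 57.7 CPM in PBS, then 128 and 112 in I80, and finally 199.6 and 221 in DI150. Hs3st3a1 stood at 0.413 and 0.404 CPM in PBS, 6.05 and 4.41 in I80 and then 16.9 in both DI150 libraries. The 2 are near-identical in their catalytic part, so their counts are uncertain. Tspan15, a tetraspanin that partners the sheddase ADAM10, was at 3.12 and 3.48 CPM in PBS, at 54.0 and 53 in I80 and at 109 and 99.0 in DI150. Most of its rise was at the first step, 16.2-fold against 1.95-fold. Psg29 and Ceacam3, members of the carcinoembryonic antigen family with many close copies, rose 19.9-fold and 22.7-fold from PBS to DI150. Cspg4, Vwa2 and Col23a1 had DI150 means between 7.10 and 12.4 CPM.

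Scaffold and cytoskeletal genes numbered 11. Pdzd2, a protein of several PDZ domains, stood at 0.676 and 0.809 CPM in PBS, then 6.2 and 5.36 in I80, and finally 39.5 and 37.2 in DI150. Mpp3, a membrane scaffold of the MAGUK family, stood at 0.0376 and 0 CPM in PBS, 4.21 and 4.53 in I80 and then 16.7 and 16.2 in DI150. Krt23, a type I keratin, was at 0.263 and 1.33 CPM in PBS, at 2.54 and 2.14 in I80 and at 20.6 in both DI150 libraries. The PBS libraries of Krt23 were 1.27 apart, the widest spread of replicates on the log2 scale among the stepwise genes, and its second step was 2.90 against a first of 1.26 (SE 0.36 each). The first step of Krt23 was 0.63 without PBS replicate 1 and 1.89 without PBS replicate 2, or 1.75-fold and 8.89-fold against 2.93-fold with both. Lcp1, the actin bundler L-plastin, best known from white blood cells, stood at 1.13 and 1.74 CPM in PBS, then 25.7 and 27.8 in I80, and finally 48.2 and 49.6 in DI150. Lcp1 and Tspan15 had the largest first steps of the 111, at 3.83 each. Fhdc1, a formin of actin and microtubules, stood at 43.7 and 40.6 CPM in PBS, 80.2 and 74.6 in I80 and then 141 in both DI150 libraries. In this group the 2 steps of Fhdc1 were the most alike (0.87 ± 0.07 and 0.86 ± 0.07, SE). Mpp2, Gas7, Mapre3, Phactr2, Tns1 and Frmpd1 had DI150 means between 5.09 and 33.6 CPM.

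Lipid and energy genes numbered 6. Ppargc1a, the coactivator PGC-1alpha of mitochondrial and peroxisomal genes, was at 5.00 and 9.99 CPM in PBS, at 30.4 and 33.3 in I80 and at 56.6 and 69.3 in DI150. Btn1a1, butyrophilin of the milk fat globule membrane, stood at 8.38 and 12.1 CPM in PBS, then 24.4 and 24 in I80, and finally 92.8 and 80.0 in DI150. The PBS libraries of Ppargc1a were 0.93 apart on the log2 scale, and those of I80 and DI150 lay far above both. Ak4, a mitochondrial adenylate kinase, rose 1.92-fold and 2.00-fold, and Chchd10, a mitochondrial intermembrane protein, 2.40-fold and 2.17-fold. Jazf1 rose from a mean of 0.741 CPM in PBS to 2.42 in I80 and 5.14 in DI150, and the fatty acid desaturase gene Fads3 from 0.176 CPM in PBS to 0.983 in I80 and 2.11 in DI150.

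DNA repair is represented by 1 stepwise gene. Ercc1, which cuts damaged DNA together with XPF, stood at 40.3 and 39.1 CPM in PBS, 122 and 117 in I80 and then 254 and 242 in DI150. Its folds were 3.01 and 2.08, with steps of 1.58 ± 0.07 and 1.05 ± 0.07 (SE). The row of Cd3eap, which overlaps it, had steps of -0.03 and -0.25.

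Of the 12 stepwise genes without a group, Trp53inp2, a protein of autophagy and transcription, had 2 nearly equal steps. It was at 16.2 and 31.3 CPM in PBS, at 43.6 and 37.7 in I80 and at 73.8 and 71.6 in DI150. Anxa9, an annexin, stood at 8.04 and 16.6 CPM in PBS, then 22.3 and 25.2 in I80, and finally 54.1 and 70.5 in DI150. On the log2 scale the PBS libraries differed by 0.93 in Trp53inp2 and 1.0 in Anxa9, beside first steps of 0.83 ± 0.26 and 1.0 ± 0.29 (SE), so the likeness of the steps of Trp53inp2 rests on both PBS libraries. Its first step was 0.37 without PBS replicate 1 and 1.3 without PBS replicate 2, and that of Anxa9 was 0.50 and 1.5. Efcab6, an EF-hand protein, stood at 0.0376 and 0 CPM in PBS, 6.4 and 6.59 in I80 and then 15 and 12.9 in DI150. Mest, an imprinted gene, and Epdr1 had DI150 means of 49.4 and 41.3 CPM, and Mlana, Anxa13, Nhlrc1, Ccdc13, Rsph1, Lysmd1 and a gene with no RefSeq symbol (number 320197) had means between 4.83 and 7.89 CPM.

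Of the 111 genes, 104 are protein coding (93.7%, beside 96.7% of tested genes) and 6 are long noncoding RNAs. Kank4os, antisense to Kank4, was at 0.0752 and 0 CPM in PBS, at 4.25 and 3.59 in I80 and at 57.4 and 53.7 in DI150. Kank4 itself had at most 0.0952 CPM in any library. With 2 reads in PBS, the ratio of pooled reads for Kank4os was 101 (exact 95% interval 27.5 to 839) for I80 and 1421 (exact 95% interval 393 to 11739) for DI150. Particl overlaps Mat2a, which stood at 286.1 to 343.2 CPM in PBS and 247.6 to 280.7 in DI150, so its 0.566 to 0.676 CPM in PBS and 3.0 to 3.17 in DI150 cannot be told apart from reads of that gene without strand. Gm10863, 4732490B19Rik, Gm10636 and F930015N05Rik had DI150 means between 2.91 and 9.95 CPM. In all, 30 of the 111 overlap another row of the table and 15 overlap a tested one.

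Stepwise genes lay close together in several places. On chromosome 3, 17 of 553 tested genes were stepwise, 15.3% of the 111 on a chromosome with 4.84% of the tested genes. Chromosome 19 held 9 of 421 and chromosome 12 held 0 of 408. Within chr3:94974731-95315180 of GRCm38, 7 stepwise genes (Pi4kb, Pip5k1a, Lysmd1, Tnfaip8l2, Sema6c, Gabpb2 and Anxa9) lay among 20 tested genes. All 13 other tested genes of this stretch were also called higher in I80 than in PBS, with a median first step of 2.52 (range 1.84 to 3.52), against 1.73 (1.0 to 2.2) for the 7. At the second step the 13 had a median of 0.31 (-0.76 to 0.76), with 8 called higher and 1 lower, while the 7, which the rule holds at 0.8 or more, had a median of 0.95.

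The 16 tested genes within 500 kb on either side had median steps of 0.94 and 0.29, and all tested genes of chromosome 3 had medians of 0.10 and 0.30. Of the 16, Ecm1 and Adamtsl4 had first steps of -3.82 and -2.88. All others of the 16 rose at the first step, by 0.48 in Mcl1 to 2.68 in Arnt. Setdb1, next to the stretch, had steps of 2.17 and 0.53, so the rise was not confined to the stretch. Lysmd1 and Tnfaip8l2 overlap each other, and Anxa9 overlaps Mindy1 and Cers2, so their reads are not separate without strand.

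**Figure D3:**
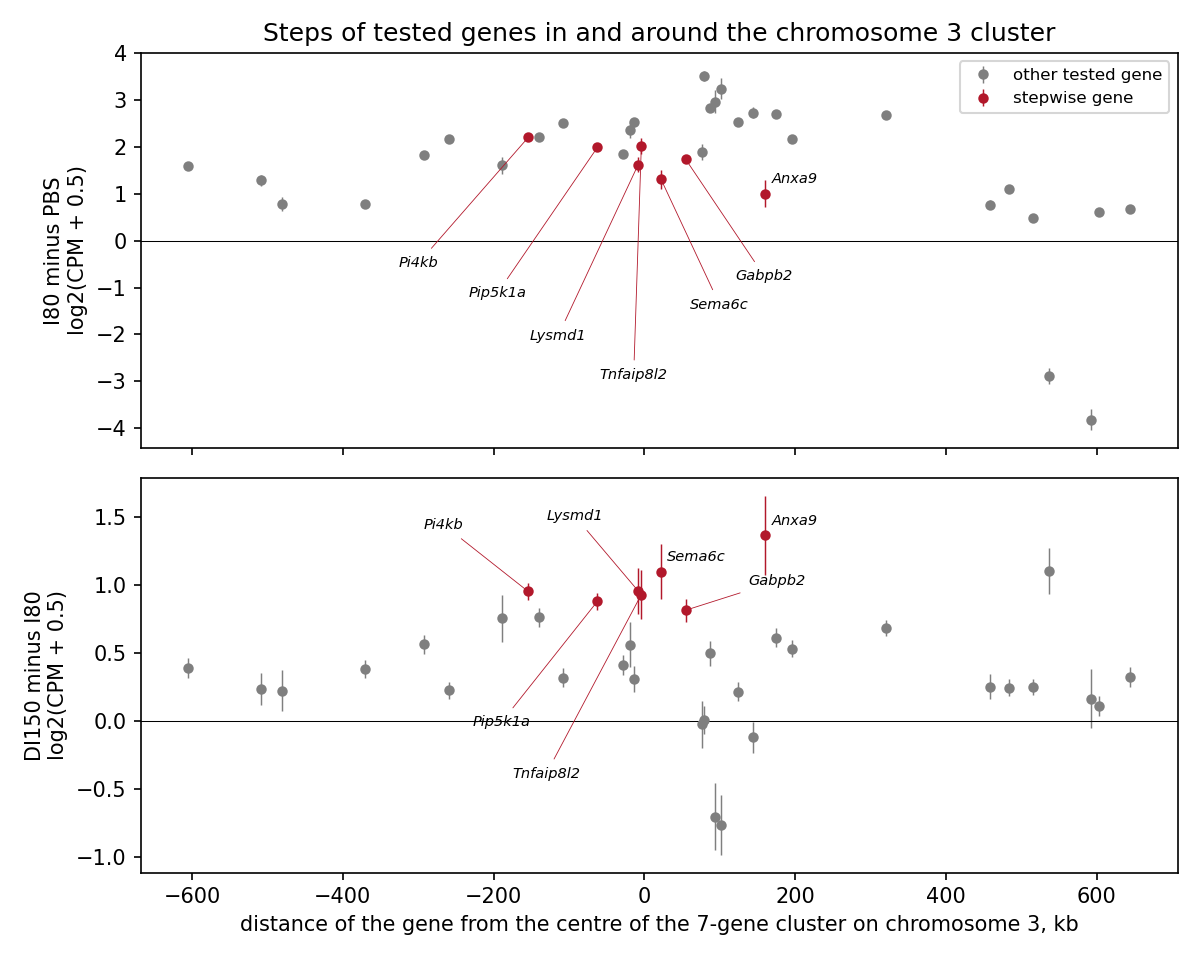
First step (upper panel) and second step (lower panel) of tested genes by distance, in kb, from the centre of the 7-gene stretch on chromosome 3, as differences of log2(CPM + 0.5) with bars of 1 SE from limma. Red points are stepwise genes and grey points other tested genes; the genes within the stretch are all above 0 at the first step, and at the second step the 7 red points lie above the grey ones of the stretch.

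Other neighbours within 100 kb were pairs or a trio. Efna4 and Adam15 adjoin on chromosome 3, where 31 flanking tested genes had median steps of 0.69 and 0.32. Dusp3, Mpp3 and Mpp2 lie at chr11:101971141-102088638, where the first steps were 0.94, 3.23 and 3.53 and 21 flanking genes had medians of -0.24 and 0.38. Hs3st3a1 and F930015N05Rik overlap on chromosome 11, C1rl and C1ra adjoin on chromosome 6, and Ceacam3 and Psg29 on chromosome 7. In these 3 places the flanking genes had median first steps of 1.10, 0.07 and 0.29 and median second steps of 0.01, 0.19 and 0.34.

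The stepwise genes were set beside 14 gene lists of oxidant defence, metabolism, tumour signalling and mammary identity. Of the 111 genes, 9 are in a list, namely Cat, Ppargc1a, Btn1a1, Spry4 and the 5 of axon guidance. The shares over all tested genes, against which the counts are to be read, were 32.3% higher and 34.2% lower at the first step and 21.9% each way at the second. Of 27 tested genes that remove peroxide and superoxide, 18 were called higher and 2 lower at the first step (median 0.77), and 6 higher and 6 lower at the second (median -0.06). Cat was the stepwise one, and Msrb1 and Msrb3, which reduce oxidised methionine, were the others called higher at both steps. With Cat they make up 11.1% of the tested list, beside 5.57% of all tested genes. Of 37 tested NRF2 targets, 29 were higher and 4 lower at the first step (median 1.52), and 7 higher and 8 lower at the second (median -0.03). Of 18 tested glutathione S-transferases, 12 were higher and 4 lower at the first step (median 1.66), and 5 and 5 at the second (median 0.16). None of the 37 or 18 was stepwise. The glutathione S-transferase genes Gstm2 and Gstm7, given above, met both lower limits and were left out by the upper limit on the first step. In each list 4 genes were called higher at both steps (10.8% and 22.2%, beside 5.57% of tested genes). The shares called higher at the first step were thus 66.7%, 78.4% and 66.7% in these 3 lists, above the 32.3% of all tested genes, while at the second step they were 22.2%, 18.9% and 27.8%, near the 21.9% of all. Of 84 counts of calls (14 lists, 3 comparisons, 2 directions), 22 moved by over 1.5 times without I80 replicate 1, 20 without I80 replicate 2, 15 without DI150 replicate 1, 14 without DI150 replicate 3, 5 without PBS replicate 1 and 9 without PBS replicate 2.

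Of 48 tested genes of peroxisomes and fatty acid oxidation, the list of Ppargc1a, 15 were higher and 11 lower at the first step and 13 and 9 at the second, with medians of 0.03 and 0.04. These are 31.3% and 22.9%, then 27.1% and 18.8%, and the shares called higher lie near those of all tested genes. In the mammary luminal and milk list, with Btn1a1, 11 were higher and 13 lower of 26 at the first step, and 8 and 5 at the second (medians -0.19 and -0.05). The milk protein gene Csn3, given above, met both lower limits and was left out by the upper one. The ERBB and MAPK feedback list, with Spry4, had 14 higher and 4 lower of 27, then 9 and 3, with medians of 0.39 and 0.28. The 56 nuclear genes of oxidative phosphorylation had 25 higher and 14 lower, then 25 and 8 (medians 0.12 and 0.19). Of these 56, 10 were called higher at both steps (17.9%, beside 5.57% of tested genes). Each of the 10 rose by less than the rule asks at 1 step or both. The shares called higher were 42.3% and then 30.8% in the mammary list, 51.9% and 33.3% in the ERBB list and 44.6% at each step in the oxidative phosphorylation list, beside 32.3% and 21.9%. The shares called lower were 50% and 19.2%, 14.8% and 11.1%, and 25% and 14.3% in the same order, beside 34.2% and 21.9%.

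The remaining lists held no stepwise gene. The PAR bZIP gene Hlf, given above, met both lower limits and was left out by the upper limit on the first step. For PAR bZIP and clock genes, 4 of 19 were higher and 10 lower at the first step and 9 and 1 at the second (medians -0.27 and 0.41). For p53 targets, 16 of 26 were higher and 4 lower, then 3 and 8 (medians 0.38 and -0.11). Glycolysis and hypoxia genes had 10 of 31 higher and 11 lower, then 12 and 4 (medians 0.13 and 0.16). At the first step the shares called higher were, in the same order, 21.1%, 61.5% and 32.3%, beside 32.3% of all tested genes. The shares called lower were 52.6%, 15.4% and 35.5%, beside 34.2%. At the second step, beside 21.9% each way over all tested genes, 47.4% of the PAR bZIP genes and 38.7% of the glycolysis genes were called higher and 5.26% and 12.9% lower, and 11.5% of the p53 targets were called higher and 30.8% lower. Wnt, TGF-beta and Notch genes had 6 of 40 higher and 22 lower, then 8 and 14 (medians -0.65 and -0.21). The shares of Wnt, TGF-beta and Notch genes called lower were 55.0% and then 35.0%, beside 34.2% and 21.9%. Those called higher were 15% and then 20%, beside 32.3% and 21.9%. MHC class I and interferon genes had 3 of 27 higher and 11 lower, then 8 and 5 (medians -0.11 and 0.10), and lipid uptake genes 3 of 15 higher and 5 lower, then 5 and 3 (medians -0.08 and 0.20). At the first step, 11.1% of the MHC list and 20% of the lipid list were called higher, beside 32.3%, and 40.7% and 33.3% lower, beside 34.2%. At the second step, 29.6% of the MHC list and 33.3% of the lipid list were called higher and 18.5% and 20% lower.

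**Figure D4:**
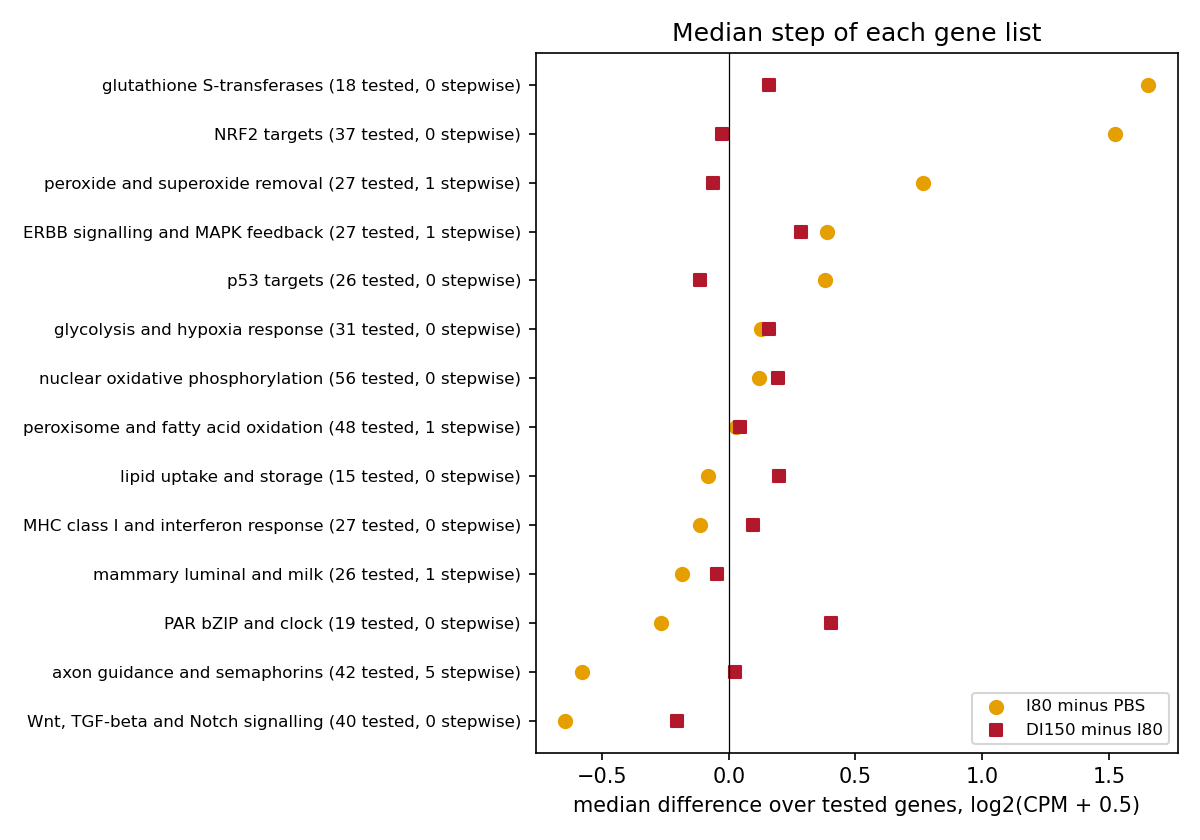
Median first step (orange circles) and median second step (red squares) over the tested genes of each of the 14 lists, as differences of log2(CPM + 0.5), with the number of tested and of stepwise genes beside each name. Glutathione S-transferases, NRF2 targets and peroxide removal have the highest first steps (0.77 to 1.66) and second steps near 0 (-0.06 to 0.16).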

How the data were processed

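Total RNA was depleted of ribosomal RNA and sequenced as single 81-base reads, per the labels' protocols. The submitters' processing notes name STAR, with no version, and mm10. Which counter and annotation were used, and whether counting kept the strand, is not given in the sources used here. Expression was read from 1 CPM table that the authors deposited, scaled to 1000000 per column, for 24454 gene numbers. Symbols, positions and promoter windows came from RefSeq tables of GRCm38.p6, which is the build mm10. Columns were matched to samples by name, 0 were left unmatched, and the DI150 column numbered 3 was used as a DI150 replicate.

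Low CPM were whole multiples of the worth of 1 read, so whole reads were recovered for 100% of 146724 values (within 0.001 of a whole number; the largest distance was 1.2e-09). Where a group had no read, folds used 3 reads per library as its floor, and with 1 to 3 reads in the group the pooled reads gave a ratio and its exact 95% interval. Both cover counting error only, since PCR copies were not told apart.

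limma 3.58.1 (trend; R 4.3.3) was fitted on log2(CPM + 0.5) over the 11428 genes that averaged 1 CPM or more, with the 3 groups in 1 fit, 3 residual degrees of freedom and a prior of 4.52. This scale understates the change of low genes, so folds are ratios of mean CPM. Comparisons were I80 against PBS, DI150 against I80 and DI150 against PBS; the first and last share the PBS libraries, and the first 2 share those of I80. Two-sided p-values were adjusted by Benjamini-Hochberg over all tested genes and called under 0.05. The script was tested on simulated data. edgeR 4.0.16 and DESeq2 1.42.0 on the recovered reads, other pseudocounts, filters and limits, TMM scaling, a replicate block and each library left out were alternatives.

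The members, the 14 gene lists and the rule for named genes were chosen with earlier results of these data known. Named by rule were members whose symbol is no predicted-gene name: the 12 with the largest rise from PBS to DI150, the 5 each with the largest second step or the most equal steps and the 3 next to the limit of 0.8, all among genes that averaged 5 CPM or more, the 10 with the highest mean CPM in DI150, the 5 with the widest replicate difference, those in a list and those within 100 kb of another. The remaining members, and the 7 genes that the upper limit left out, were named after their values were seen. The values of 1 member are not reported here.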

Additional observations from a re-analysis of the deposited data

How the results depend on the processing

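The number of stepwise genes depended mainly on the limits that define them. It was 192 with steps of at least 0.6, 56 with steps of at least 1 and 67 with a mean of at least 5 CPM, against 111, and 67 members could then be called at both steps. Other pseudocounts gave 120 (0.1, with 100 of the 111) and 91 (1, with 90), a filter of 0.5 CPM or none gave 116 with all 111, and TMM scaling gave 111. Leaving out 1 library gave 101 to 126 genes, with 96 to 109 of the 111. The lone library of a group was then assumed to vary like the other groups. The members called at both steps numbered 106 with DESeq2, 111 with edgeR, 108 without a filter and 87 to 111 with 1 library left out.

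With 1 library left out, genes called in I80 against PBS ranged from 2816 to 3841 (higher) and 3163 to 3881 (lower), in DI150 against PBS from 2992 to 3867 and 3429 to 4063, and in DI150 against I80 from 1296 to 3070 and 1181 to 3021. The last pair was 2503 and 2505 with all libraries, and the lower count was 1228 and 1181 without I80 replicate 1 or 2 and 1456 without DI150 replicate 1. The replicate block used the column numbers, so DI150 replicate 3 had a number of its own and was paired with no library. The DI150 values of the block thus rest on DI150 replicate 1 alone. The block gave 1361 higher and 1327 lower in DI150 against I80 and 96 members called at both steps. These counts are not those of a paired comparison. The replicate numbers share only a number. Differences between the libraries of a group were correlated across genes, with DI150 replicate 3 set beside number 2. They gave r = 0.02 for PBS with I80, -0.06 for PBS with DI150 and 0.21 for I80 with DI150. The block also cost degrees of freedom. For each named member and step, 1340 values under alternatives kept their direction and call and 30 kept the direction and lost the call, in Krt23, Trp53inp2, Cbr2, Anxa9, Ppargc1a, Mpp2 and Tnfaip8l2, and 0 reversed. Counts of calls in gene lists stayed within 1.5 times in 1146 cases and moved in 114. With 2 libraries per group no outlier within a group can be tested, and under 3 reads a level cannot be told from 0.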
